A study of Mus musculus with 114 samples.

Results

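The 7 genes described here, Abca1, Abcg1, Apoe, Soat1, Pltp, Scarb1 and Nceh1, handle the removal and the storage of cellular cholesterol, and they were chosen by symbol from the 29132 genes of a table of adipocyte expression. They were followed in adipocytes of perigonadal white adipose tissue from male C57BL/6J mice that received a chow diet (CD) or the high-fat diet D12492 (HFD) from 6 weeks of age. Mice were taken after 8, 20 or 34 weeks of diet, with 6 mice in each group except CD at 34 weeks, which had 8, so that 38 mice were compared. The methods name alternative control diet products for CD and do not say which group received which. A difference of product between groups thus cannot be told apart from time or diet. Per the methods, mice were fasted for 6 hours before they were taken. No transgene or drug is named for any group. Adipocytes were the floating fraction after collagenase digestion of the fat pad, so the samples are bulk RNA of a fraction defined by buoyancy and not of sorted cells. In such bulk RNA, fewer cells of a type and less RNA per cell cannot be told apart.

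Free cholesterol cannot be broken down by adipocytes or macrophages, and both cell types must store it or export it. ABCA1 loads lipid-poor apolipoproteins such as apolipoprotein E with cholesterol, ABCG1 passes cholesterol on to maturing high-density lipoprotein (HDL), PLTP remodels that particle, and SCARB1 exchanges cholesteryl ester with it. Inside the cell SOAT1 esterifies cholesterol for storage in droplets and NCEH1 hydrolyses the ester again. Abca1, Abcg1, Apoe and Pltp are textbook targets of the liver X receptors (LXR), which bind oxysterols and pair with retinoid X receptors on repeated half-sites with a 4-base spacer.

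The promoters are shown for Abca1, the one of the 5 members searched in which such a repeat was found. Those of Soat1, Nceh1 and Pltp, which moved together in the data below, are shown as well. Each is the 250 bases before the start of the gene, read 5′ to 3′ on the strand of the gene from the RefSeq annotation of GRCm38.p6. Abca1 lies at chr4:53159896-53160145 on the minus strand, Soat1 at chr1:156474329-156474578 on the minus strand, Nceh1 at chr3:27182754-27183003 on the plus strand and Pltp at chr2:164857709-164857958 on the minus strand. Capitals mark matches to the LXR repeat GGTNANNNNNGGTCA, to the sterol element (ATCAC followed directly by CCCAC) or to the E-box CACGTG on either strand.
Abca1: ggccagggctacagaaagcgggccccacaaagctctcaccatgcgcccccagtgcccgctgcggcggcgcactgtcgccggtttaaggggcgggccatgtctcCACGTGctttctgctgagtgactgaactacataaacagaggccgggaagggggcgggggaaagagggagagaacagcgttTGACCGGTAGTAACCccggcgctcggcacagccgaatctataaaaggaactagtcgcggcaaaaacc
Soat1: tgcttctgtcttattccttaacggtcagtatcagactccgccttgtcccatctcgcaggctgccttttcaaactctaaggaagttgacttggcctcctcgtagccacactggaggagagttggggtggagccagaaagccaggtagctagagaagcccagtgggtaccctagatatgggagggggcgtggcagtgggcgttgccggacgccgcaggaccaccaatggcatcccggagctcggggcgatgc
Nceh1: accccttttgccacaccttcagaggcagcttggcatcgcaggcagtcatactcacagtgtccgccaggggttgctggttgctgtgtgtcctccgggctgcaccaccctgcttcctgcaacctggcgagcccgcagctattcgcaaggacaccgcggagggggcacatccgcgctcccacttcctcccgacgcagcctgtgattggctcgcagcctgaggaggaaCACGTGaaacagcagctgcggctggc
Pltp: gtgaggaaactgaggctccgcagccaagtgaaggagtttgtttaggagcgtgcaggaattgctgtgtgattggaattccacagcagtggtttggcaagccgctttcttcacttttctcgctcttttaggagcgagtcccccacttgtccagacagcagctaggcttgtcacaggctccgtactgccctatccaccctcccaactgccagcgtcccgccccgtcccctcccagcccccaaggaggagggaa
In Abca1 the repeat stood on the opposite strand from -67 to -53 relative to the first base of the gene, at chr4:53159948-53159962, and read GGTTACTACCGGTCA on that strand. Of 32851 promoter windows of 300 bases, which reach 50 bases into the gene, 0.207% held this repeat. E-boxes stood at -147 to -142 in Abca1 and at -26 to -21 in Nceh1, a motif held by 7.15% of the windows and searched after the values were known. These positions are relative to the RefSeq start. The Nceh1 E-box, at chr3:27182978-27182983, lies inside the GENCODE span of that gene given below, which starts at 27182965. The sterol element, held by 0.0913% of the windows, was found in none of the 7 windows that represent 5 of the 7 members. Apoe had no match in its windows. Abcg1 and Scarb1 had no window and were not searched, and no member was searched outside its windows. The motifs do not overlap each other, and a match is a description of letters, not of binding.

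In the GENCODE annotation of GRCm38, Abca1 spans chr4:53030787-53159895, Abcg1 chr17:31057675-31117988, Apoe chr7:19696109-19699188, Pltp chr2:164839518-164857711, Scarb1 chr5:125277087-125341094, Soat1 chr1:156424525-156474331 and Nceh1 chr3:27182965-27284608. Expression is given in CPM, the reads of a gene per 1000000 reads assigned to genes in that mouse. Libraries held 9275711 to 15480388 assigned reads, and 1 read was worth 0.0646 to 0.108 CPM. At 8 weeks the depths of the diets did not overlap, with 10562845 to 12611013 reads in CD and 13201234 to 15480388 in HFD. Depth in CD at 20 weeks (13091365 to 14292115 reads) did not overlap that in CD at 8 weeks. Depth in HFD at 34 weeks (10714545 to 12271651 reads) did not overlap that in HFD at 8 weeks. The least expressed member, Nceh1, still had 23 reads in its lowest mouse. Adipocyte markers made up a summed 16175 to 66587 CPM in every mouse, and the 6 T cell markers summed to at most 3.34 CPM. Macrophage markers were also present in every mouse. Their 14 measured genes summed to a median of 648 CPM in CD and 2023 CPM in HFD at 8 weeks, 1294 and 6851 CPM at 20 weeks, and 3754 and 11324 CPM at 34 weeks.

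Per kilobase of exon, Apoe stood far above the other members in each group, and Soat1 and Nceh1 were the lowest in young CD mice. Exon lengths came from a later GENCODE release than the one the methods name for counting. Levels per kb and ratios per exon base are therefore approximate. In CD mice at 8 weeks the mean level was 2664 CPM per kb for Apoe, 74.0 for Abca1, 34.1 for Pltp, 11.8 for Scarb1, 11.2 for Abcg1, 1.34 for Nceh1 and 0.983 for Soat1. The neighbours Scarb1 and Abcg1 did not differ by more than their spread in that order, nor did Nceh1 and Soat1. In HFD mice at 34 weeks the order was Apoe with 2641 CPM per kb, Pltp with 499, Abca1 with 53.8, Nceh1 with 45.3, Abcg1 with 23.7, Soat1 with 16.0 and Scarb1 with 9.61. Pltp, Nceh1 and Soat1 thus took higher places than in young CD mice, and Scarb1 took the last. Below Pltp, the ranges of neighbours in this order overlapped between mice, so those places are not firm.

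**Figure D1:**
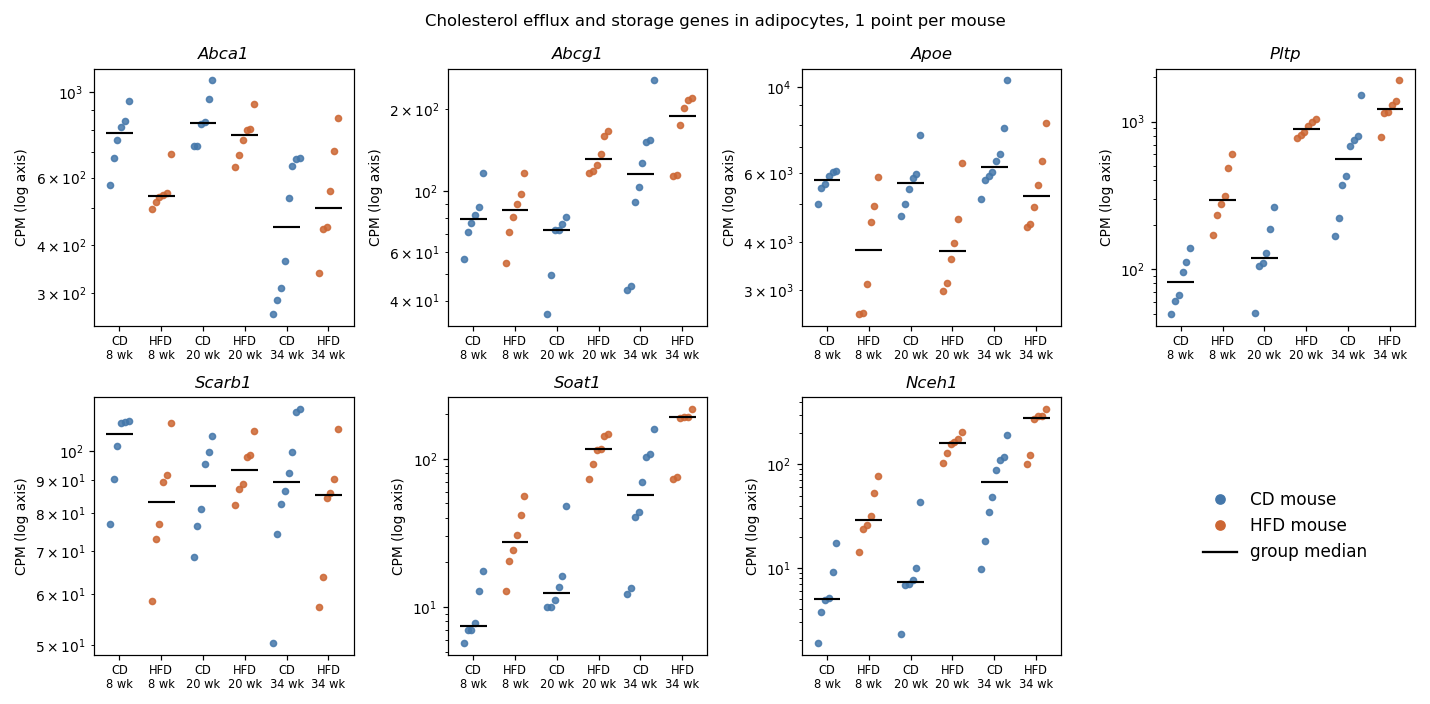
CPM of the 7 genes in each of 38 mice on a log axis, with CD mice in blue, HFD mice in orange and the group median as a bar. Pltp, Soat1 and Nceh1 are higher in HFD mice and higher at 34 than at 8 weeks in both diets, Apoe is lower in most HFD mice at 8 and 20 weeks, and Scarb1 groups overlap at every time.

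Diet was compared at each time in 1 limma model of all 6 groups on log2(CPM + 1), with 10343 genes tested and Benjamini-Hochberg adjusted p under 0.05 as the call. At 8 weeks 3 of the 7 members rose in HFD and 1 fell, at 20 weeks 4 rose and 1 fell, and at 34 weeks 4 rose and none fell. Of all tested genes, 29.8% rose and 15.1% fell at 8 weeks (44.9% called), 38.3% rose and 18.7% fell at 20 weeks (57.0% called), and 27.5% rose and 15.7% fell at 34 weeks (43.2% called). The members' counts of 4, 5 and 4 of 7 are to be read against those shares. The median log2 fold change of the members was 0.05, 1.12 and 0.67 at the 3 times, and that of all tested genes was 0.11, 0.14 and 0.07. With TMM scaling the median of all genes became 0.01, -0.07 and -0.01, and the share of calls that were rises went from 66.3%, 67.1% and 63.6% to 51.4%, 44.7% and 51.9%.

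The clearest differences were in the storage genes and in Pltp. Soat1, which forms cholesteryl ester, ranged from 5.71 to 17.4 CPM (median 7.39) in CD mice at 8 weeks, from 9.93 to 48.1 (median 12.4) at 20 weeks and from 12.3 to 160.4 (median 57.0) at 34 weeks. In HFD mice it ranged from 12.8 to 55.8 CPM (median 27.4), from 73.7 to 147.5 (median 116.1) and from 73.3 to 216.9 (median 190.6). At 20 weeks the lowest HFD mouse was above the highest CD mouse, while 5 of 6 HFD mice at 8 weeks and 4 of 6 at 34 weeks were above every CD mouse. The log2 fold change was 1.54 ± 0.47 (SE, adjusted p = 0.00911) at 8 weeks, 2.80 ± 0.47 (adjusted p = 9.11e-06) at 20 weeks and 1.49 ± 0.44 (adjusted p = 0.00722) at 34 weeks in limma. With each time fitted separately the rise at 34 weeks was not called (adjusted p = 0.0601).

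Nceh1, which hydrolyses cholesteryl ester, had the largest diet differences of the 7 genes at each time. It ranged from 1.88 to 17.4 CPM (median 5.01) in CD mice at 8 weeks, from 2.28 to 43.0 (median 7.26) at 20 weeks and from 9.82 to 192.2 (median 67.9) at 34 weeks. In HFD mice it ranged from 14.2 to 76.5 CPM (median 28.9), from 102.5 to 206.9 (median 160.9) and from 101.1 to 342.0 (median 283.2). As for Soat1, the diets did not overlap at 20 weeks. The log2 fold changes were 2.31 ± 0.56 (SE, adjusted p = 0.00148), 3.98 ± 0.56 (adjusted p = 6.94e-07) and 1.98 ± 0.53 (adjusted p = 0.00315) in limma. Mean CPM was 12.2-fold higher in HFD than in CD at 20 weeks. One CD mouse at 20 weeks, mouse 1, held 43.0 CPM of Nceh1 and 48.1 CPM of Soat1, above the other 5 CD mice of that time, and without single mice the log2 fold change of Nceh1 at 20 weeks ran from 3.67 to 4.42.

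Pltp, the phospholipid transfer protein, ranged from 49.6 to 139.1 CPM (median 81.4) in CD mice at 8 weeks, from 50.8 to 265.1 (median 119.4) at 20 weeks and from 167.5 to 1522 (median 557.1) at 34 weeks. In HFD mice it ranged from 169.9 to 600.3 CPM (median 294.6), from 775.2 to 1048 (median 893.6) and from 782.4 to 1908 (median 1225). The lowest HFD mouse exceeded the highest CD mouse at 8 weeks and again at 20 weeks, while only 1 of 6 HFD mice did so at 34 weeks. The log2 fold changes were 1.94 ± 0.39 (SE, adjusted p = 0.000229), 2.84 ± 0.39 (adjusted p = 4.92e-07) and 1.31 ± 0.36 (adjusted p = 0.00455) in limma. Pltp was the one member without overlap of the diets at 8 weeks, 4 members had none at 20 weeks and none of the 7 was free of overlap at 34 weeks. Of all tested genes, 22.8%, 37.2% and 2.46% had no overlap at these times.

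**Figure D2:**
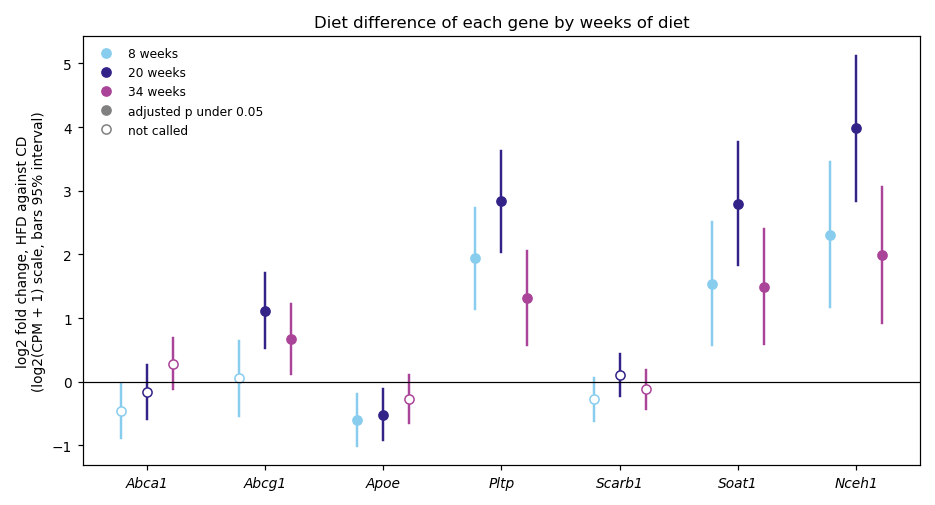
Log2 fold change of HFD against CD on the log2(CPM + 1) scale for each gene at 8, 20 and 34 weeks, with 95% intervals as bars and filled points for adjusted p under 0.05. Soat1, Pltp and Nceh1 are filled at all 3 times and highest at 20 weeks, Apoe is below 0 and filled at 8 and 20 weeks, and no Scarb1 point is filled.

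In the limma fit of the 6 groups, Abca1, an exporter, was not called for diet at any time. Abcg1, the other exporter, rose in HFD at 20 and 34 weeks and was not called at 8 weeks. Abca1 ranged from 572.9 to 948.1 CPM (median 781.8) in CD mice at 8 weeks, from 724.5 to 1074 (median 832.0) at 20 weeks and from 264.9 to 673.1 (median 446.3) at 34 weeks. HFD mice ranged from 497.7 to 689.4 CPM (median 536.3), from 638.0 to 929.9 (median 773.8) and from 338.8 to 857.8 (median 500.9). At 8 weeks 5 of 6 HFD mice were below all CD mice, and the sixth, mouse 2, lay among them. The log2 fold change was -0.46 ± 0.21 (SE, adjusted p = 0.0738 in limma) at 8 weeks, -0.16 ± 0.21 (adjusted p = 0.536) at 20 weeks and 0.28 ± 0.20 (adjusted p = 0.247) at 34 weeks. The 8-week value was thus not called, but it passed with TMM scaling (-0.56, adjusted p = 0.0226), with edgeR (-0.58, adjusted p = 0.0234) and with DESeq2 (-0.57, adjusted p = 0.0176). It also passed without CD mouse 1 (-0.54, adjusted p = 0.0471), the lowest CD mouse. Limma called it as well with array weights (-0.52, adjusted p = 0.0017) and with each time fitted separately (-0.46, adjusted p = 0.0068). Of 11 alternatives apart from leaving out a mouse, 8 called this 8-week fall.

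Abcg1 ranged from 56.8 to 116.5 CPM (median 79.4) in CD mice at 8 weeks, from 35.7 to 80.7 (median 72.6) at 20 weeks and from 43.8 to 254.4 (median 115.8) at 34 weeks. Levels in HFD mice ranged from 54.9 to 117.0 CPM (median 85.6), from 116.8 to 165.7 (median 130.9) and from 113.5 to 218.8 (median 188.2). The diets covered the same range at 8 weeks and did not overlap at 20 weeks, and at 34 weeks all HFD mice lay within the wide range of the CD mice. The log2 fold change was 0.05 ± 0.29 (SE, adjusted p = 0.892 in limma) at 8 weeks, where it fell to -0.05 with TMM scaling, and 1.12 ± 0.29 (adjusted p = 0.00151) at 20 weeks. At 34 weeks it was 0.67 ± 0.27 (adjusted p = 0.0453), and this call was lost with TMM scaling (0.58, adjusted p = 0.0645), edgeR (adjusted p = 0.149) and DESeq2 (adjusted p = 0.136). It was also lost without any 1 of CD mice 3, 4, 6 and 8 or HFD mice 2, 3, 4 and 5 of that time, with log2 fold changes of 0.49 to 0.67 and adjusted p of 0.0600 to 0.124. Within a mouse, the level of Abca1 per exon base was a median of 9.41 times that of Abcg1 in CD and 3.95 times in HFD at 20 weeks, with ranges of 7.03 to 14.3 and 3.20 to 4.80. At 8 weeks the medians were 6.57 in CD and 4.45 in HFD with overlapping ranges (5.07 to 9.38 and 3.87 to 6.38), and at 34 weeks they were 2.77 and 2.74, again with overlap.

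Apoe, the apolipoprotein that accepts cholesterol, was lower in HFD at 8 and 20 weeks. It ranged from 4996 to 6103 CPM (median 5772) in CD mice at 8 weeks, from 4668 to 7543 (median 5657) at 20 weeks and from 5171 to 10422 (median 6251) at 34 weeks. The HFD groups ranged from 2608 to 5861 CPM (median 3809), from 2984 to 6381 (median 3791) and from 4375 to 8079 (median 5252). At 8 and at 20 weeks 5 of 6 HFD mice were below every CD mouse and 1 lay within their range. Apoe fell by 0.60 ± 0.20 on the log2 scale (SE, adjusted p = 0.0150 in limma) at 8 weeks and by 0.52 ± 0.20 (adjusted p = 0.0271) at 20 weeks, and its log2 fold change was -0.27 ± 0.19 (adjusted p = 0.240) at 34 weeks. Without the filter on low genes neither fall was called (adjusted p = 0.0965 and 0.134). The 8-week call was lost without HFD mouse 3 (log2 fold change -0.50, adjusted p = 0.0556) or 4 (-0.49, adjusted p = 0.0550), and the 20-week call without CD mouse 3 (-0.43, adjusted p = 0.0771) or HFD mouse 2 (-0.49, adjusted p = 0.0504), 3 (-0.45, adjusted p = 0.0701) or 6 (-0.43, adjusted p = 0.0781).

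Apoe and Pltp, both carried on HDL, therefore differed in opposite directions in the same mice at 8 and 20 weeks. Within a mouse, the level of Apoe per exon base was a median of 85.4 times that of Pltp in CD and 16.8 times in HFD at 8 weeks, with ranges of 52.0 to 143.0 and 5.23 to 31.7. At 20 weeks the medians were 52.0 and 5.01, with ranges of 26.4 to 178.0 in CD and 4.02 to 8.98 in HFD. Neither pair of ranges overlapped, and Pltp alone was also without overlap at both times. The share of ratios of other genes without overlap was not counted.

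Scarb1, the HDL receptor, gave no call for diet. It ranged from 77.0 to 111.1 CPM (median 106.1) in CD mice at 8 weeks, from 68.4 to 105.3 (median 88.3) at 20 weeks and from 50.4 to 116.0 (median 89.4) at 34 weeks. In HFD mice it ranged from 58.6 to 110.3 CPM (median 83.2), from 82.5 to 107.2 (median 93.3) and from 57.4 to 107.9 (median 85.3). The log2 fold change was -0.28 at 8 weeks (95% interval -0.61 to 0.05, adjusted p = 0.160 in limma), 0.10 at 20 weeks (-0.23 to 0.44, adjusted p = 0.605) and -0.12 at 34 weeks (-0.43 to 0.19, adjusted p = 0.532). The 20-week value turned to -0.11 with TMM scaling.

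Whether the diet difference changed with time was tested by interaction. No member was called by limma for the change from 8 to 20 weeks, from 8 to 34 weeks or from 20 to 34 weeks, where 4.49%, 28.8% and 10.5% of all tested genes were called, and 2, 1 and 2 members had an unadjusted p under 0.05. The diet difference of Abca1 moved up by 0.74 on the log2 scale from 8 to 34 weeks (95% interval 0.16 to 1.32, adjusted p = 0.0504 in limma), and this passed with TMM scaling (adjusted p = 0.0371), edgeR (adjusted p = 0.0439) and DESeq2 (adjusted p = 0.0332). It also passed without any 1 of 10 mice, namely CD 8wk mouse 1, HFD 8wk mouse 2, CD 20wk mouse 3, CD 34wk mice 1, 5, 7 and 8 and HFD 34wk mice 1, 4 and 6, with an adjusted p of 0.0211 at the lowest. For Pltp the change from 20 to 34 weeks was -1.52 (-2.61 to -0.44, adjusted p = 0.0591), and it passed with edgeR (adjusted p = 0.0462), with DESeq2 (adjusted p = 0.0201) and without CD 20wk mouse 1 (-1.74, adjusted p = 0.0246), CD 34wk mouse 4 (-1.69, adjusted p = 0.0309), CD 34wk mouse 6 (-1.75, adjusted p = 0.0182) or HFD 34wk mouse 4 (-1.65, adjusted p = 0.0487). For Nceh1 the 95% interval of this change was -3.56 to -0.43 (adjusted p = 0.0862), and it passed without CD 20wk mouse 1 (-2.43, adjusted p = 0.0220), CD 34wk mouse 4 (-2.21, adjusted p = 0.0496) or CD 34wk mouse 6 (-2.33, adjusted p = 0.0264). The diet difference of Abcg1 changed by 1.06 from 8 to 20 weeks (0.23 to 1.90, adjusted p = 0.102). That of Nceh1 changed by 1.67 over the same span (0.06 to 3.28, adjusted p = 0.168 in limma).

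Time on either diet, which is also age, also separated Soat1, Pltp and Nceh1. Between 8 and 20 weeks in CD no member was called by limma, where 3.58% of all genes were, none had an unadjusted p under 0.05, and none was called by edgeR or DESeq2. Between 8 and 34 weeks in CD, where 64.7% of all genes were called, 3 members rose and 1 fell. Soat1 rose by 2.36 ± 0.44 on the log2 scale (SE, adjusted p = 3.01e-05), Pltp by 2.59 ± 0.36 (adjusted p = 4.86e-07) and Nceh1 by 3.03 ± 0.53 (adjusted p = 1.02e-05), while Abca1 fell by 0.79 ± 0.20 (adjusted p = 0.000747). The other 3 were at 0.38 for Abcg1 (adjusted p = 0.215), 0.23 for Apoe (adjusted p = 0.289) and -0.19 for Scarb1 (adjusted p = 0.278). With array weights in limma, Abcg1 (0.55, adjusted p = 0.0382) and Scarb1 (-0.35, adjusted p = 0.0280) were called. Of the 14 macrophage markers, 12 rose and none fell over the same span. With their mean as a covariate in limma, the change was 0.50 for Soat1, which lost its call (adjusted p = 0.163), 0.97 for Pltp (adjusted p = 0.000246), 0.66 for Nceh1 (adjusted p = 0.0403) and -1.06 for Abca1 (adjusted p = 0.000614).

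In HFD, where 36.5% of all genes were called between 8 and 20 weeks and 52.5% between 8 and 34 weeks, 3 and 5 members rose and none fell. Soat1 rose by 1.96 (adjusted p = 0.00197 in limma) up to 20 weeks and by 2.32 (adjusted p = 0.000154) up to 34 weeks, Pltp with a 95% interval of 0.71 to 2.30 (adjusted p = 0.00341) and by 1.96 (adjusted p = 0.000112), and Nceh1 by 2.20 (adjusted p = 0.00304) and 2.70 (adjusted p = 0.000178). Abcg1 rose by 1.00 ± 0.29 (adjusted p = 0.00457) up to 34 weeks. Apoe rose by 0.55 ± 0.20 (adjusted p = 0.0197), a call lost with TMM scaling (0.44, adjusted p = 0.0747) and edgeR (0.41, adjusted p = 0.0976) and without HFD 8wk mouse 3 (0.45, adjusted p = 0.0622), HFD 8wk mouse 4 (0.45, adjusted p = 0.0640) or HFD 34wk mouse 4 (0.44, adjusted p = 0.0712). Abca1 was at -0.05 (adjusted p = 0.845) and Scarb1 at -0.03 (adjusted p = 0.884). Of the 14 macrophage markers, 10 rose and none fell up to 20 weeks, and 12 rose and 1 fell up to 34 weeks. With their mean as a covariate in limma, no member was called over either span, where 754 and 1944 of the 10343 tested genes were. Up to 20 weeks the change was then 0.54 for Soat1 (adjusted p = 0.259), 0.27 for Pltp (adjusted p = 0.426) and 0.40 for Nceh1 (adjusted p = 0.375). Up to 34 weeks it was 0.40 for Soat1 (adjusted p = 0.365), 0.31 for Pltp (adjusted p = 0.315), 0.28 for Nceh1 (adjusted p = 0.504), 0.41 for Abcg1 (adjusted p = 0.396) and 0.51 for Apoe (adjusted p = 0.152). Comparisons that share a group are not independent of each other.

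CD mice were uneven in several members, at 34 weeks and before. The coefficient of variation of CPM in CD at 8, 20 and 34 weeks was 47.4%, 81.7% and 75.2% for Soat1, 80.1%, 117.7% and 79.9% for Nceh1, 39.4%, 53.0% and 70.5% for Pltp and 24.5%, 27.6% and 56.3% for Abcg1. In HFD it was 50.5%, 24.6% and 41.2% for Soat1, 61.5%, 23.2% and 41.9% for Nceh1, 47.3%, 12.0% and 29.0% for Pltp and 25.3%, 15.2% and 27.8% for Abcg1, lowest at 20 weeks for each of the 4 genes. No test of these differences in spread was run. CD mouse 5 of 34 weeks held 160.4 CPM of Soat1, 192.2 CPM of Nceh1, 1522 CPM of Pltp and 10422 CPM of Apoe, and CD mouse 6 held 12.3, 9.82, 167.5 and 6462 CPM. Mouse 5 was thus in the range of HFD mice of that age and mouse 6 in the range of CD mice at 20 weeks for Soat1, Nceh1 and Pltp. Macrophage markers summed to 12985 CPM in mouse 5 and to 1242 CPM in mouse 6, the highest and the lowest of that group.

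Soat1, Nceh1 and Pltp followed each other across the 38 mice, with a Pearson r of log2(CPM + 1) of 0.99 for Soat1 and Nceh1, 0.97 for Soat1 and Pltp and 0.98 for Nceh1 and Pltp. These values are descriptions over mice that share diet and time. Abcg1 had r of 0.80 with Soat1, 0.75 with Pltp and 0.76 with Nceh1, while Abca1, Apoe and Scarb1 had r between -0.26 and 0.20 with every other member. Per exon base, the level of Nceh1 in a mouse was a median of 1.27 times that of Soat1 in CD at 8 weeks and 2.11 times in HFD, 1.15 and 2.60 times at 20 weeks, and 2.05 and 2.87 times at 34 weeks. The ranges of this ratio did not overlap between diets at any time, with 0.61 to 1.86 against 1.96 to 2.55 at 8 weeks, 0.43 to 1.67 against 2.30 to 2.62 at 20 weeks and 1.49 to 2.51 against 2.57 to 3.08 at 34 weeks. Of single tested genes, 22.8%, 37.2% and 2.46% had no overlap at these times, and the share among ratios of other genes was not counted. The CD ratios at 8 weeks rest on as few as 23 reads of Nceh1 and 70 of Soat1.

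Over all tested genes, the 3 most like Soat1 by Pearson r were Ly9 (0.99), Tpd52 (0.99) and Cerk (0.99). Those most like Nceh1 were Cd84 (1.00), Cerk (1.00) and Myo1f (0.99), and those most like Pltp were Selplg (0.99), Tyrobp (0.99) and Cyba (0.98). Ly9 and Cd84 are receptors of blood cells, Selplg is the P-selectin ligand of leukocytes, and Tyrobp is an adaptor of myeloid receptors. Abcg1 was most like Stab2 (0.89), Plekhg3 (0.88) and Idua (0.87), Abca1 was most like Fndc3a (0.92), Atrx (0.92) and Ankhd1 (0.91), and Apoe was most like Khk (0.83), Taz (0.80) and Irf2bp2 (0.79). Scarb1 had no close companion, with Vtn at 0.55, Tfpi at 0.52 and Cept1 at 0.51.

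Macrophage markers moved with Soat1, Pltp and Nceh1. Of 14 measured markers, 9 rose in HFD at 8 weeks and none fell, 11 rose and Cd163 fell at 20 weeks, and 12 rose and none fell at 34 weeks, with Cd68 at log2 fold changes of 1.78, 3.29 and 1.87. Of 9 markers of lipid-associated macrophages, 9, 9 and 8 rose, with Trem2 at 2.90, 5.07 and 2.28. Their summed level ranged from 227.8 to 565.5 CPM in CD and 595.3 to 2936 CPM in HFD at 8 weeks, from 158.0 to 2313 and 4351 to 11845 CPM at 20 weeks, and from 438.7 to 6674 and 4716 to 14530 CPM at 34 weeks. The diets did not overlap in this sum at 8 and 20 weeks. The macrophage marker sum ranged from 319.5 to 1649 CPM in CD and 1174 to 3400 CPM in HFD at 8 weeks, from 498.6 to 3487 and 4699 to 9022 CPM at 20 weeks, and from 1242 to 12985 and 5449 to 16264 CPM at 34 weeks. None of the 14 macrophage markers was at 0 in any mouse, and Adgre1 was not analysed here.

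The relation was also seen between mice of the same diet and time. Over 42 relations of a member with the mean log2(CPM + 1) of the 14 macrophage markers within a group, Nceh1 had r of 0.90 to 0.98 in the 6 groups, and all 6 passed an exact two-sided permutation test with p of 0.00136 to 0.00972 and Benjamini-Hochberg adjusted p of 0.00972 to 0.0333. Soat1 had r of 0.86 to 0.92 and passed in 5 groups, and Pltp had r of 0.56 to 0.96 and passed in 4. Of the HFD groups, Pltp passed in that of 8 weeks alone. Spearman's rho was 0.77 to 1.00 for Nceh1, 0.77 to 1.00 for Soat1 and 0.43 to 1.00 for Pltp, and of these 18 relations 7 had an adjusted exact p of at most 0.0167 for rho. All 7 were in CD groups, and in the HFD groups the adjusted exact permutation p for rho was 0.07 at the lowest. How many other genes follow the markers within groups was not counted. Without the 2 mice farthest from the group median of the markers, r was 0.64 to 0.86 for Nceh1, 0.48 to 0.93 for Soat1 and 0.39 to 0.96 for Pltp. Abca1 (r from -0.51 to 0.69), Apoe (-0.89 to 0.76) and Scarb1 (0.06 to 0.78) passed in no group, and Abcg1 (-0.49 to 0.84) passed in CD at 34 weeks alone. With r of 0.84 and rho of 0.86 there (adjusted exact permutation p = 0.0333 and 0.0563), r of Abcg1 was 0.58 without the 2 farthest mice.

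**Figure D3:**
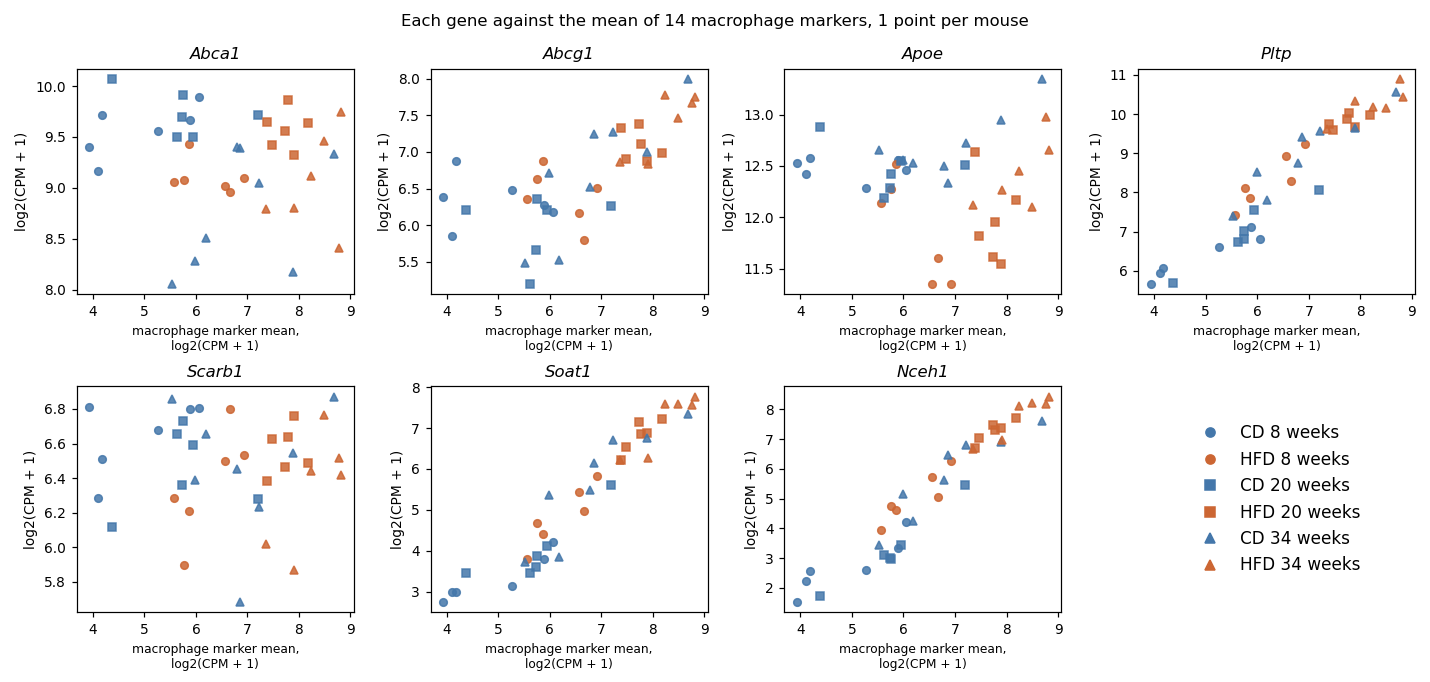
Log2(CPM + 1) of each gene against the mean of 14 macrophage markers on the same scale, 1 point per mouse, with diet by colour and weeks by symbol. Soat1, Pltp and Nceh1 lie along a rising line over all groups, Abcg1 follows more loosely, and Abca1, Apoe and Scarb1 show no common line.

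With the macrophage marker mean added to the limma fit, the diet differences of Soat1, Pltp and Nceh1 shrank at each time. At 8 weeks the log2 fold change was 0.86 for Pltp (adjusted p = 0.000851), 0.74 for Nceh1 (adjusted p = 0.0215) and 0.30 for Soat1, which was no longer called (adjusted p = 0.412). At 20 weeks it was 1.24 for Pltp (adjusted p = 9.05e-05), 1.63 for Nceh1 (adjusted p = 8.96e-05) and 0.95 for Soat1 (adjusted p = 0.0208). At 34 weeks it was 0.20 for Pltp (adjusted p = 0.521), 0.35 for Nceh1 (adjusted p = 0.367) and 0.21 for Soat1 (adjusted p = 0.655), so that no member was called there. All 3 thus stayed called at 20 weeks in this fit, and none did at 34 weeks. Of the 10343 tested genes, 3617, 2920 and 1114 were called at 8, 20 and 34 weeks in the same fit.

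In the same fit Abcg1 was at -0.33 at 8 weeks (adjusted p = 0.407 in limma), 0.54 at 20 weeks (adjusted p = 0.224) and 0.27 at 34 weeks (adjusted p = 0.579), so that the sign turned at 8 weeks and both calls were lost. Abca1 was at -0.64 at 8 weeks (adjusted p = 0.0286), -0.43 at 20 weeks (adjusted p = 0.214) and 0.09 at 34 weeks (adjusted p = 0.822). At 8 weeks Apoe was at -0.63 (adjusted p = 0.0290), and Scarb1 passed at -0.44 (adjusted p = 0.0492). Apoe at 20 weeks was at -0.56 and lost its call (adjusted p = 0.0930). The markers moved with diet, so that in this fit the marker mean and the diet share part of their variation. The part of macrophage RNA in the differences was not tested beyond these values.

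**Figure D4:**
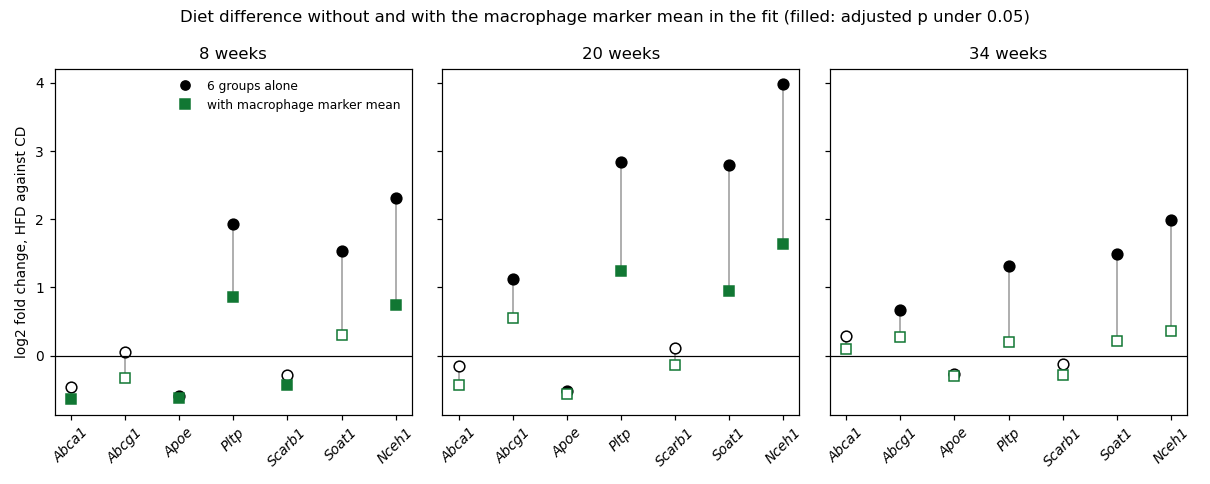
Log2 fold change of HFD against CD from the 6 groups alone (circles) and with the macrophage marker mean in the fit (squares), filled where adjusted p was under 0.05. At 20 weeks Pltp, Soat1 and Nceh1 are lower but still filled as squares, and at 34 weeks no square is filled.

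Other cell types moved with diet as well. All 6 endothelial markers rose at 8 and 34 weeks and 5 of 6 at 20 weeks, and of 7 tested progenitor and fibroblast markers 6, 7 and 4 rose. Of 10 adipocyte markers, 1 rose and 2 fell at 8 weeks, 1 rose and 7 fell at 20 weeks, and 8 fell at 34 weeks. Adipoq, the adiponectin gene, fell by 0.75 on the log2 scale at 20 weeks (adjusted p = 0.000709), and Lep, the leptin gene, rose by 2.90. The part of these cell types in the member values and in the pathway lists below was not tested.

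**Figure D5:**
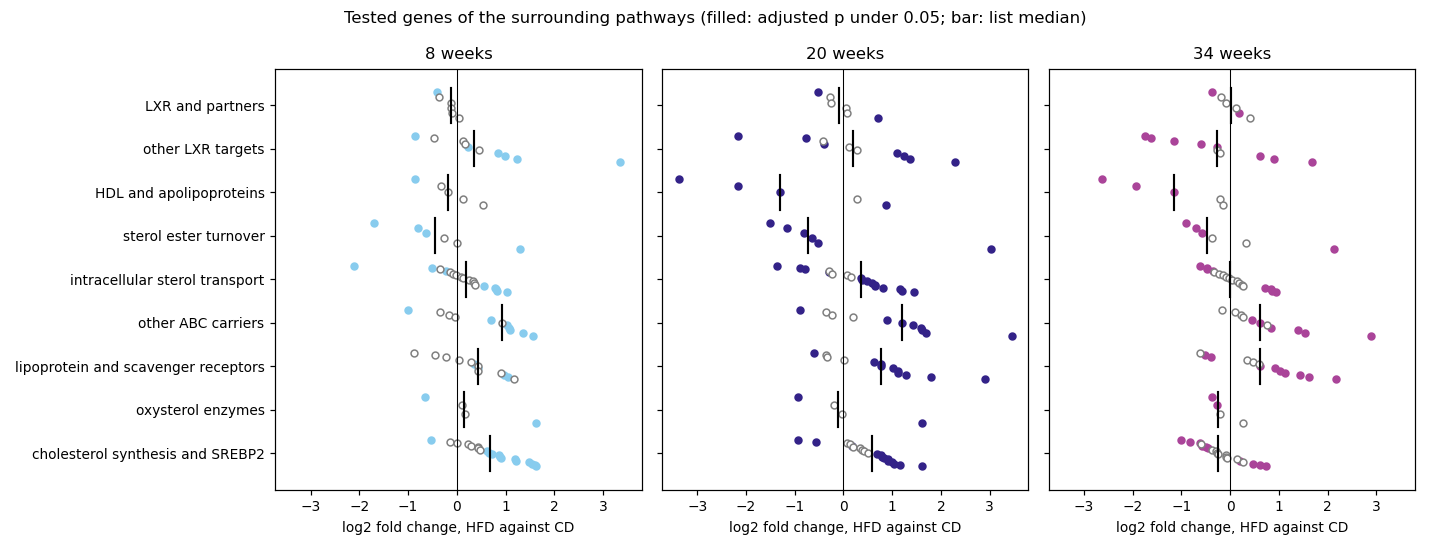
Log2 fold change of HFD against CD for the tested genes of 9 surrounding pathways at 8, 20 and 34 weeks, filled for adjusted p under 0.05, with the list median as a bar. Sterol ester turnover has 1 rise, Lipa, against falls of its other called genes, and cholesterol synthesis lies to the right at 8 and 20 weeks and not at 34 weeks.

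Among partners of LXR, Nr1h3, which encodes LXR alpha, was not called at any time (log2 fold change -0.12, -0.25 and -0.19), and Rxra, its retinoid X receptor partner, fell at each time. Rxra ranged from 251.1 to 355.7 CPM in CD and 210.4 to 291.9 in HFD at 8 weeks, and its log2 fold changes were -0.40, -0.52 and -0.38 (adjusted p = 0.00246, 6.16e-05 and 0.00204 in limma). Of the 6 tested genes, none rose and 1 fell at 8 weeks, and 1 rose and 1 fell at each later time. The rise at 34 weeks was Nr1h2, LXR beta (0.18). Of all tested genes, 29.8% rose and 15.1% fell at 8 weeks, 38.3% and 18.7% at 20 weeks, and 27.5% and 15.7% at 34 weeks. The counts of this and the following lists are to be read against those shares. With TMM scaling a smaller share of all calls were rises.

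Of 10 tested targets of LXR outside the members, 5 rose and 1 fell at 8 weeks, 4 rose and 3 fell at 20 weeks, and 3 rose and 5 fell at 34 weeks. Mylip, a ubiquitin ligase, rose at each time (0.99, 1.24 and 0.89), while Srebf1, the driver of fatty acid synthesis, fell at 20 weeks (-0.78) and 34 weeks (-0.60). The largest rise at 20 weeks was in Scd2, a desaturase (2.30), and the largest fall in Apoc1, an apolipoprotein beside Apoe in the genome (-2.17). The median of this list was 0.35, 0.19 and -0.27.

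Of 16 genes of HDL and its apolipoproteins only 5 passed the filter on low values. Apoa1, the main HDL protein, was at most 0.917 CPM in any mouse. Apoc1 ranged from 155.4 to 714.7 CPM in CD and 47.6 to 93.4 in HFD at 20 weeks, without overlap, and fell at each time (-0.86, -2.17 and -1.14). The largest fall was in Saa3, an acute-phase apolipoprotein, at 20 weeks (-3.38), and Clu also fell (-1.30). The one rise was in Bmp1, a protease that processes HDL protein (0.88). None rose and 1 fell at 8 weeks, 1 rose and 3 fell at 20 weeks, and none rose and 3 fell at 34 weeks.

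Of the genes of ester turnover outside Soat1 and Nceh1, Lipa alone rose in HFD. Macrophage markers rose as well, and their part in the values of this and the other pathway lists was not tested. Lipa, the lysosomal acid lipase, ranged from 68.6 to 263.6 CPM in CD and 552.3 to 1090 in HFD at 20 weeks and rose by 1.30, 3.03 and 2.12 on the log2 scale. Lipe, the hormone-sensitive lipase of adipocytes that also splits cholesteryl ester, ranged from 1893 to 2669 CPM in CD and 1386 to 2240 in HFD at 20 weeks and fell by 0.53 there and by 0.70 at 34 weeks. The largest fall at 20 weeks was in Ces1f, a carboxylesterase (-1.51). Of 6 tested genes 1 rose at each time, and 3, 5 and 3 fell, with list medians of -0.45, -0.73 and -0.47. One of the 6, Acat2, is a thiolase at the start of sterol synthesis and not an ester enzyme, and it is among the falls at 20 and 34 weeks. Without it 3, 4 and 2 of 5 genes fell, with medians of -0.63, -0.82 and -0.37. Soat2, the other esterifying enzyme, did not pass the filter and was at most 0.406 CPM in any mouse.

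Of 18 tested carriers of sterol inside the cell, 5 rose and 3 fell at 8 weeks, 10 rose and 4 fell at 20 weeks, and 4 rose and 4 fell at 34 weeks. Stard4, a cytosolic sterol carrier, rose most at 20 weeks (1.45), and Star, a mitochondrial sterol importer, fell most (-1.36). Npc1, which exports cholesterol from lysosomes, was at 0.08 at 8 weeks and rose at 20 weeks (0.81) and 34 weeks (0.85). Of 11 tested ABC transporters beside Abca1 and Abcg1, 6, 7 and 6 rose and 1, 1 and 0 fell, led at 20 weeks by Abcb4, a phospholipid exporter (3.45), with Abca8a as the fall (-0.90). Abca7, the closest relative of Abca1, rose at each time (1.09, 1.62 and 0.83).

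Of 13 tested lipoprotein and scavenger receptors, 4 rose and none fell at 8 weeks, 9 rose and 1 fell at 20 weeks, and 7 rose and 2 fell at 34 weeks. Msr1, a scavenger receptor of macrophages, rose most at 20 weeks (2.90), and Sort1, a sorting receptor, was the fall (-0.60). Cd36, a fatty acid and lipoprotein receptor of adipocytes and macrophages, rose at each time (0.36, 0.63 and 0.62).

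Of 20 tested genes of cholesterol synthesis and its regulator SREBP2, 12 rose and 1 fell at 8 weeks, 11 rose and 2 fell at 20 weeks, and 4 rose and 6 fell at 34 weeks, with list medians of 0.69, 0.59 and -0.26. Dhcr7, which makes cholesterol in a last step of its synthesis, rose at 8 weeks (1.62) and 20 weeks (1.61), and Fdft1, squalene synthase, fell at each time (-0.52, -0.93 and -0.62). Of 4 tested genes listed as oxysterol enzymes, 1 rose and 1 fell at 8 and at 20 weeks, and 2 fell at 34 weeks. The rise was Dhcr7, already counted among the synthesis genes, and 1 of the falls at 34 weeks was Ebp, also an enzyme of cholesterol synthesis. Hsd3b7, an oxysterol-metabolising enzyme, fell at each time (-0.64, -0.94 and -0.38). Ch25h, which makes an LXR ligand, did not pass the filter.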

How the data were processed

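RNA was measured by poly(A) sequencing of 114 libraries, 3 technical replicates for each of 38 mice, which the authors merged into 1 column a mouse. Per the study's methods and the submitters' processing notes, the authors aligned reads with STAR (2.5 and 2.5.2b are named) to mm10, counted them over GENCODE exons with featureCounts (Subread 1.5.1) and made CPM values with edgeR. The methods name TMM factors for CPM, but the deposited CPM columns each sum to 1000000, which a TMM factor would change, so the values were used as plain CPM and TMM was tried as an alternative. Dividing by the value of 1 read gave whole reads for 100% of values (within 0.1 reads). Dividing the values of 1 gene by depth leaves a share of all RNA, so a rise of other genes lowers it.

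From the CPM, limma 3.58.1 (R 4.3.3) was fitted with a mean-variance trend to log2(CPM + 1), which understates changes of low genes, over 10343 genes with a mean above 2.0. All 6 groups entered, with 32 residual degrees of freedom, 10 comparisons and Benjamini-Hochberg adjustment over all genes tested. The recovered reads were fitted with edgeR 4.0.16 and DESeq2 1.42.0 as alternatives. The script was tested on simulated data. Mice of a group differed beyond counting noise, with chi-square per degree of freedom of at least 9.99 over 103 pairs. The members and lists were chosen with earlier results of these data known. Outside the members, genes were named as the largest called rise and fall at 20 weeks of a list, for a role that bears on a member, or as the 3 with the highest r. Adgre1 and Msmo1 and the stromal vascular fraction were not analysed here. Alternatives were the pseudocount (0.25), the filter, TMM and median-of-ratios scaling, edgeR, DESeq2, each time fitted separately, a replicate block, array weights, the macrophage marker mean as a covariate and leaving out each mouse. Some genes of the pathway lists enter the counts, and their own values are not reported here.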

Additional observations from a re-analysis of the deposited data

Results flagged for a closer look

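In 2 of 42 combinations of a member and a group, 1 mouse stood apart from the others by Dixon's criterion on log2(CPM + 1), and chance gives about 1 in 20. Abca1 was 689.405 CPM in HFD 8wk mouse 2, against 497.7 to 547.5 CPM in the other 5 mice. Soat1 was 48.1384 CPM in CD 20wk mouse 1, against 9.93 to 16.3 CPM in the other 5. The same CD 20wk mouse held the highest macrophage marker sum of its group, 3487 CPM, and the part of these cells in its Soat1 value was not tested.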

How the results depend on the processing

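The rises of Soat1, Pltp and Nceh1 at 8 and 20 weeks kept their direction in every alternative, and their calls in all but the macrophage covariate for Soat1 at 8 weeks. Array weights, the macrophage covariate and the interactions moved counts most, and the cause was not tested. With array weights, all genes called became 7032 for diet at 8 weeks, 1543 for 20 against 8 weeks in CD, 6392 in HFD, 4263 for the interaction from 8 to 20 weeks and 3407 from 20 to 34 weeks, and members called became 5 for 20 against 8 weeks in HFD and 3, 2 and 3 for the interactions from 8 to 20, 8 to 34 and 20 to 34 weeks. With the macrophage covariate, all genes called became 2920 and 1114 for diet at 20 and 34 weeks, 789 for 20 against 8 weeks in CD, 754 in HFD and 1944 for 34 against 8 weeks in HFD. Members called became 3 and 0 for diet at 20 and 34 weeks, 0 for 20 and for 34 against 8 weeks in HFD, and 2 for each of the interactions to 34 weeks. With DESeq2, 590 genes were called for 20 against 8 weeks in CD and 851 for the interaction from 8 to 20 weeks. With each time fitted separately, 2457 genes and 2 members were called for diet at 34 weeks. For the interaction from 8 to 34 weeks 1 member, Abca1, was called with TMM, median-of-ratios, edgeR, DESeq2 and the replicate block, and from 20 to 34 weeks edgeR and DESeq2 called 1, Pltp.

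Signs turned only in values that were not called. Abcg1 for diet at 8 weeks became -0.051, -0.059, -0.044, -0.032, -0.16 and -0.33 with TMM, median-of-ratios, edgeR, DESeq2, array weights and the macrophage covariate. Scarb1 for diet at 20 weeks became -0.11, -0.063, -0.10 and -0.062 with TMM, median-of-ratios, edgeR and DESeq2 and -0.13 with the macrophage covariate, and 0.063 at 34 weeks with array weights. Abcg1 from 8 to 34 weeks in CD became -0.19 with the macrophage covariate, and Abca1 in HFD 0.023 with array weights. Leaving out 1 mouse gave ranges of -0.044 to 0.17 for Abcg1 at 8 weeks, -0.19 to 0.075 for Abca1 and -0.13 to 0.062 for Scarb1 from 8 to 34 weeks in HFD. It gave 217 to 483 genes called for 20 against 8 weeks in CD, 196 to 1313 and 709 to 1575 for the interactions from 8 to 20 and 20 to 34 weeks, and 0 to 1 and 0 to 2 members for those from 8 to 34 and 20 to 34 weeks. On the CPM scale a mouse stood apart in 4 combinations of a member and a group, from 3 mice, in place of 2.

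The labels state no pairing of mice by number. Same-numbered mice of a time correlated in their deviations at -0.51 to 0.53 (median -0.07, 18 pairs), and different-numbered mice at -0.73 to 0.68 (median -0.02, 102 pairs). Correlations spread this widely cannot exclude a pairing. With the replicate block 5 members were called at 8 and at 34 weeks in place of 4, the added one being Abca1 (adjusted p = 0.0486 and 0.0363).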
